A study of Mus musculus with 4 samples.

Results

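Chemokines and genes of NF-kB inflammatory signalling were examined in liver RNA-seq libraries of mice fed conjugated linoleic acid (CLA) with or without the PPARα antagonist GW6471. The genes were chosen by their symbols: all chemokine ligands and receptors named Ccl, Cxcl, Ccr or Cxcr with a number, and 25 further symbols of the NF-kB and tumour necrosis factor pathways, adhesion molecules, acute phase proteins and cytokines. Of 15500 genes in the expression table, 51 met this rule, with 30 found by the chemokine names and 21 among the 25 further symbols. The other 4 symbols, Tnf, Saa1, Saa2 and Saa3, were not analysed here. A mean over the 4 libraries of at least 1 FPKM (fragments scaled to the length of the transcript and to the number of mapped fragments) was reached by 28 members, and 23 lay below it.

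Chemokines are small secreted proteins that attract leukocytes through receptors on the leukocyte surface. NF-kB is a family of dimeric transcription factors that inhibitor proteins hold in the cytoplasm until a signal, such as tumour necrosis factor or a bacterial product, leads to the destruction of the inhibitor. Many chemokine genes, and several of the inhibitors themselves, are textbook targets of NF-kB. In liver, hepatocytes, macrophages, endothelial cells and bile duct cells can all produce chemokines.

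All libraries came from male Kunming mice, an outbred stock, bought at 5 weeks of age. Each diet was chow with 1 added fatty acid at 1.5% by weight. In the Vehicle group this was linoleic acid, and in the CLA group it was CLA as the isomers c9t11 and t10c12 in the same proportion. The GW6471 group was fed the linoleic acid diet and given daily intraperitoneal GW6471 at 20 mg per kg, and the CLA+GW6471 group combined that injection with the CLA diet. The treatment lasted 28 days in groups of 6 mice, and the livers of the diet experiment were taken at zeitgeber time 8, that is, 8 h after lights on. Vehicle injections were given where appropriate. The table holds 1 library per condition, and pooling of mice is not stated. Each difference is therefore one between single libraries, without replicate error or a p-value.

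The depth, estimated from the steps between low values, was 18850000 to 19290000 reads per library. Of the leukocyte genes listed, neutrophil, T and NK cell genes were near 0, and single genes of other leukocytes were higher. The pan-leukocyte gene Ptprc was at 0 to 0.01 FPKM, the 6 listed neutrophil genes summed to 0.06 to 0.22 FPKM, and the 5 listed T and NK cell genes to 0.10 to 0.11 FPKM. The 8 listed macrophage genes summed to 25.1 to 38.2 FPKM, of which Cd68 alone gave 23.43 to 35.64, while the Kupffer cell gene Cd5l was at 0 to 0.02 FPKM. The 5 listed dendritic cell genes summed to 2.72 to 3.21 FPKM, of which Zbtb46 gave 2.62 to 3.14, and the 5 listed B and plasma cell genes to 0.55 to 1.28 FPKM, with Pax5 at up to 1.13. All 10 listed endothelial genes had a mean under 1 FPKM. Of 12 listed hepatocyte genes, 7 had a mean under 1 FPKM, and the defining genes Ttr and Apoh were at 0 to 0.04 FPKM, whereas Alb was at 620.17 to 1321.55 FPKM. The sum of the hepatocyte genes was 1005 (Vehicle), 1865 (CLA), 1523 (GW6471) and 931 FPKM (CLA+GW6471). In such bulk libraries, fewer cells of a type and less RNA per cell cannot be told apart. The 8 listed bile duct genes summed to 405.54 to 657.19 FPKM, led by Spp1, and the 7 listed stellate cell and fibroblast genes to 1149 to 1507 FPKM, of which Dcn alone gave 1147.76 to 1506.01 while the other 6 had a mean under 1 FPKM. The squamous epithelial gene Sprr1a was at 15810 to 26116 FPKM, while the keratin gene Krt14 was at 0.03 to 0.05 FPKM. Thus most of the hepatocyte genes that define liver were low in libraries labelled liver, and Sprr1a was far higher than Alb.

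Promoters are shown first, because NF-kB, for which many of these genes are textbook targets, binds a known DNA motif. RefSeq promoters (GRCm38.p6, 250 bases before to 50 bases after a gene's start) were available for 35 of the 51 members. Those without an entry were Cxcl16, Ccl2, Nfkb1, Relb, Vcam1, Nfkbiz, Cxcl5, Cxcl17, Ccl5, Ccr10, Cxcl11, Ccr7, Ccl7, Ccl4, Cxcr5 and Cxcr7. The textbook NF-kB consensus, a motif of 10 bases that starts with GGG and ends with CC, was searched on both strands, and overlapping matches were counted as 1 promoter with a match. It occurred in 1480 of 32851 promoters (4.51%), in 16 of the 44 promoters of members (36.4%), and in at least 1 promoter of 14 of the 35 members (40.0%). Among members with a mean of at least 1 FPKM, 11 of 20 held it. The chemokine ligands Cxcl1, Cxcl2 and Cxcl3, the inhibitors Nfkbia and Tnfaip3, the subunit Nfkb2 and the cytokine Csf1 were among these. Stretches of 9 promoters, 1 for each gene, follow, chosen to show the match in ligands, inhibitors and a subunit. Capitals mark 1 match in each stretch, which in Ccl20, Nfkbia, Tnfaip3 and Csf1 reads as the consensus on the opposite strand. The Nfkb2 stretch holds a further match from -11 to -2 that is left in lower case. The strand is that of the gene, and positions count back from -1, the base before the start of the gene.
Cxcl3 (chr5:90785983-90786082, plus strand, match from -73 to -64): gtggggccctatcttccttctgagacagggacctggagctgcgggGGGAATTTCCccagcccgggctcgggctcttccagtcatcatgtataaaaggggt
Cxcl2 (chr5:90903757-90903856, plus strand, match from -97 to -88): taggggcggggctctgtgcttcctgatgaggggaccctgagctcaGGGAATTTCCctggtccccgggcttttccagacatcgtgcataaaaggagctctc
Cxcl1 (chr5:90891129-90891228, plus strand, match from -71 to -62): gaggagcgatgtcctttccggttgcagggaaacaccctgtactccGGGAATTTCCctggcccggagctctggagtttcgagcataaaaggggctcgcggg
Ccl20 (chr1:83116641-83116740, plus strand, match from -80 to -71): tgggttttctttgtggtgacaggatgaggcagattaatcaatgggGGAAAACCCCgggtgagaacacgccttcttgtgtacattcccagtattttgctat
Cxcl10 (chr5:92348938-92349037, minus strand, match from -103 to -94): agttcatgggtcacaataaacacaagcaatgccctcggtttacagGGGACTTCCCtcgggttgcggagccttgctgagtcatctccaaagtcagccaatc
Nfkbia (chr12:55492648-55492721, minus strand, match from -29 to -20): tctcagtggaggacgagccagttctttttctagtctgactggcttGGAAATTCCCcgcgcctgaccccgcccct
Tnfaip3 (chr10:19015411-19015467, minus strand, match from -12 to -3): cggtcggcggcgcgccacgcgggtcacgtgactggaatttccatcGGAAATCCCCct
Nfkb2 (chr19:46304653-46304736, plus strand, match from -39 to -30): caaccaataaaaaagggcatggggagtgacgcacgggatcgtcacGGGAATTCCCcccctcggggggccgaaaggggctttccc
Csf1 (chr3:107760569-107760668, minus strand, match from -154 to -145): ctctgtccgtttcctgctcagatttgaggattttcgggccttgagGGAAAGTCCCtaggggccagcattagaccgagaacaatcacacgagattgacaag

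The 3 neighbouring ligands Cxcl3, Cxcl2 and Cxcl1 carried the same 10 bases, GGGAATTTCC, starting at -73, -97 and -71. A match to these letters is a description and not a binding site, and a promoter without a match lacks only these letters in this window. Among members with an entry, Cx3cl1, Traf1, Lif, Icam1 and Birc3 had no match in it. The levels of genes with the same motif differed widely in the same libraries, as the values of the CXC ligands show.

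Among the subunits of NF-kB, Nfkb1 and Relb differed little between the libraries, and Nfkb2 and Rela lay beyond their counting intervals in all 4 comparisons, under 1.5-fold. Nfkb2, which encodes a precursor cut to an active subunit in the non-canonical pathway, was at 89.49 (Vehicle), 68.82 (CLA), 83.46 (GW6471) and 87.66 FPKM (CLA+GW6471). Rela, which encodes the main activating subunit, was at 77.89, 62.18, 73.82 and 91.35 FPKM in the same order. For both genes the CLA library was the lowest. Nfkb1, the precursor gene of the canonical pathway, was at 24.06, 24.62, 25.36 and 23.82 FPKM. Relb, the partner of the Nfkb2 product, was at 22.04, 20.44, 21.12 and 21.80 FPKM. The highest library of Nfkb1 exceeded the lowest by 1.06-fold, which was the smallest spread of the 28 members with a mean of at least 1 FPKM, and Relb followed with 1.08-fold. Rel, the subunit known from lymphoid cells, stayed low, at 0.69 to 1.15 FPKM.

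Differences between libraries are given as the log2 of the ratio of their FPKM, each with 0.1 added, which makes the change of low genes look smaller. A gene was called changed from 2-fold, and the looser limit of 1.5-fold is given beside it, both among the 10355 genes with a mean of at least 1 FPKM. The 95% counting intervals of log2 ratios (exact Clopper-Pearson) rest on FPKM turned into approximate read numbers, and cover counting error only. Of the 28 members, 7 were past 2-fold in at least 1 of the 4 comparisons, against 4.73% of all genes, and 17 stayed under 1.5-fold in all 4, against 79.9% of all genes. The 7 were the ligands Ccl20, Cx3cl1, Cxcl17, Ccl2, Cxcl16 and Cxcl2 and the adaptor gene Traf1. Icam1, Nfkb1, Relb, Ccl27a and Cxcl1 lay within their counting interval in all 4 comparisons.

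**Figure D1:**
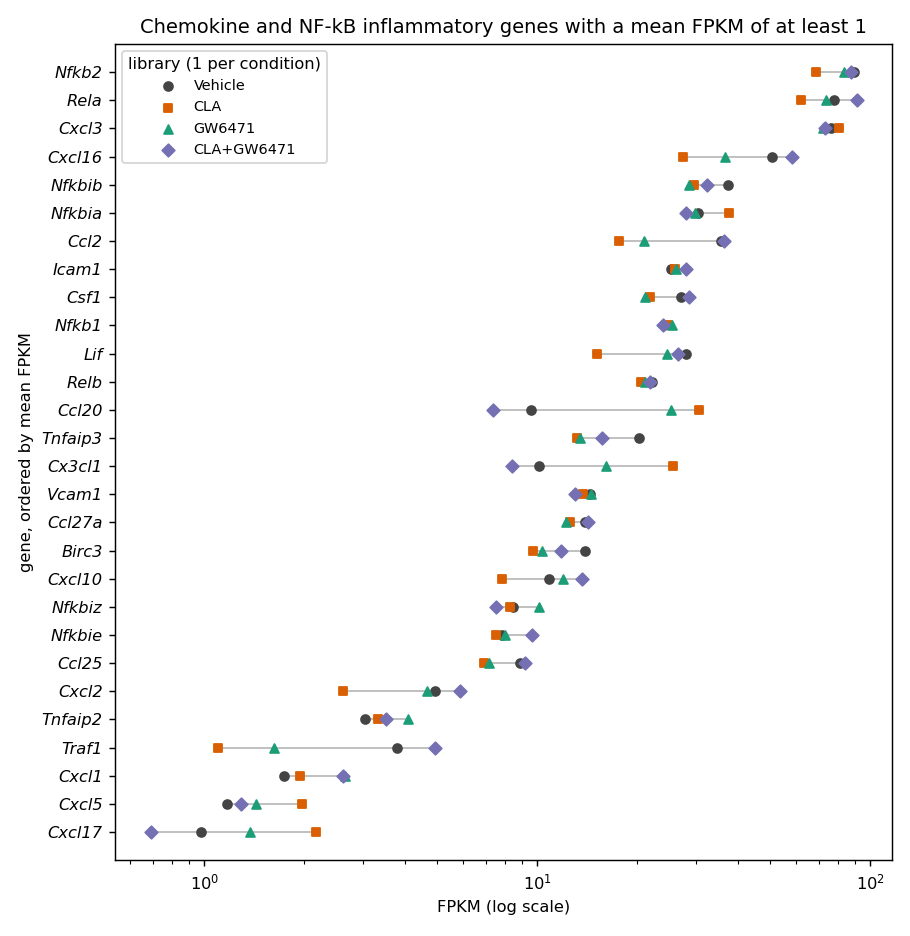
FPKM on a log axis for the 28 members with a mean of at least 1 FPKM, 1 symbol per library and a grey line from the lowest to the highest library. Nfkb2, Rela and Cxcl3 stood highest, and Ccl20, Cx3cl1, Traf1 and Cxcl17 had the longest lines.

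The inhibitors of NF-kB were all expressed. Nfkbia, which encodes the classical IkBα, was at 30.46 (Vehicle), 37.72 (CLA), 29.74 (GW6471) and 27.97 FPKM (CLA+GW6471), so that the CLA library was the highest. Its log2 ratio of CLA to Vehicle was 0.31 (95% counting interval 0.18 to 0.44). Nfkbib, encoding IkBβ, was at 37.43, 29.53, 28.52 and 32.24 FPKM, with Vehicle the highest. Nfkbie stood at 7.86, 7.53, 8.01 and 9.67 FPKM. Nfkbiz, which encodes a nuclear member of the inhibitor family, was at 8.45, 8.29, 10.12 and 7.53 FPKM. Tnfaip3, the gene of a ubiquitin-editing enzyme that shuts off the pathway, was at 20.16 (Vehicle), 13.17 (CLA), 13.42 (GW6471) and 15.64 FPKM (CLA+GW6471). It was 1.53-fold lower in CLA than in Vehicle (log2 ratio -0.61, -0.73 to -0.50), past the 1.5-fold limit, and the other 4 inhibitors stayed under 1.5-fold in all 4 comparisons.

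Among the 3 members of the tumour necrosis factor pathway, Traf1 varied the most. Traf1 (Entrez gene 22029, mm9 chromosome 2, 34797270 to 34817292, minus strand), an adaptor of the receptor complex and a well-known NF-kB target, was at 3.80 (Vehicle), 1.10 (CLA), 1.62 (GW6471) and 4.94 FPKM (CLA+GW6471). The CLA and GW6471 libraries were low and the other 2 high. It was 3.25-fold lower in CLA than in Vehicle (log2 ratio -1.70, -2.19 to -1.40) and 2.27-fold lower in GW6471 than in Vehicle (-1.18, -1.58 to -0.90). It was 4.20-fold higher in CLA+GW6471 than in CLA and 2.93-fold higher than in GW6471 (log2 ratio 1.55, 1.29 to 1.95). These values rest on an estimated 71 to 325 reads per library. Birc3, an inhibitor of apoptosis that joins the same complex, was at 13.96, 9.72, 10.34 and 11.82 FPKM, with a log2 ratio of CLA to Vehicle of -0.52. Tnfaip2, a gene induced by tumour necrosis factor, was at 3.03, 3.33, 4.08 and 3.52 FPKM and stayed under 1.5-fold throughout.

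Among the member ligands with a mean of at least 1 FPKM, the CC ligand Ccl20 had the widest spread. Ccl20 (Entrez gene 20297, mm9 chromosome 1, 83113341 to 83115742, plus strand), which attracts lymphocytes and dendritic cells through CCR6, was at 9.57 (Vehicle), 30.65 (CLA), 25.17 (GW6471) and 7.36 FPKM (CLA+GW6471). CLA and GW6471 were high, and Vehicle and CLA+GW6471 low. The level in CLA was 3.18-fold that in Vehicle (log2 ratio 1.67, 1.47 to 1.89), and that in GW6471 was 2.61-fold (1.39, 1.19 to 1.61). In CLA+GW6471, Ccl20 was 4.12-fold lower than in CLA (-2.04, -2.28 to -1.83) and 3.39-fold lower than in GW6471 (-1.76, -2.004 to -1.54).

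Ccl2 (Entrez gene 20296, mm9 chromosome 11, 81849073 to 81850955, plus strand), the main attractant of monocytes, was at 35.52 (Vehicle), 17.59 (CLA), 20.91 (GW6471) and 36.46 FPKM (CLA+GW6471). Its order was the reverse of that of Ccl20. The level in CLA was 2.01-fold lower than in Vehicle (log2 ratio -1.01, -1.23 to -0.80), just past the limit, and with a pseudocount of 1 it was -0.97. The ratio of CLA+GW6471 to CLA was 1.05 on the log2 scale (0.84 to 1.27), and that to GW6471 was 0.80 (0.60 to 1.002). Ccl7, a related monocyte attractant whose gene starts 8.26 kb beyond the end of Ccl2, was at 0.11 to 0.22 FPKM.

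The other CC ligands with a mean of at least 1 FPKM moved less. Ccl27a, known from skin as an attractant of T cells, was at 13.90, 12.51, 12.18 and 14.23 FPKM, and its reads are uncertain because Ccl27b is a near-identical copy in the mouse genome. Ccl25, known from thymus and gut, was at 8.86, 6.91, 7.17 and 9.20 FPKM. Both stayed under 1.5-fold in all 4 comparisons. The remaining CC ligands lay under a mean of 1 FPKM. Ccl5, an attractant of T cells, was at 0.57 (Vehicle), 1.04 (CLA), 0.09 (GW6471) and 0.47 FPKM (CLA+GW6471), and Ccl17 at 0.82, 0.92, 1.21 and 0.20 FPKM, an estimated 1 to 12 reads. Ccl9 was at 0.66 to 0.87 FPKM.

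Cx3cl1 (Entrez gene 20312, mm9 chromosome 8, 97295909 to 97306323, plus strand), the only CX3C ligand, is made as a membrane-bound protein that also serves adhesion. It was at 10.11 (Vehicle), 25.60 (CLA), 16.05 (GW6471) and 8.41 FPKM (CLA+GW6471). As for Ccl20, the CLA library was the highest and CLA+GW6471 the lowest. The level in CLA was 2.52-fold that in Vehicle (log2 ratio 1.33, 1.21 to 1.48), and in GW6471 it was 1.58-fold (0.66, 0.52 to 0.81). In CLA+GW6471 it was 3.02-fold lower than in CLA (-1.59, -1.75 to -1.46) and 1.90-fold lower than in GW6471 (-0.92, -1.09 to -0.78). Its neighbours on chromosome 8 were low: Ccl22, which ends 20.3 kb before Cx3cl1, was at 0 to 0.06 FPKM, and Ccl17, which starts 28.0 kb after it, at most at 1.21 FPKM. The receptor gene Cx3cr1, which is no member, was at 0.01 FPKM in all 4 libraries.

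**Figure D2:**
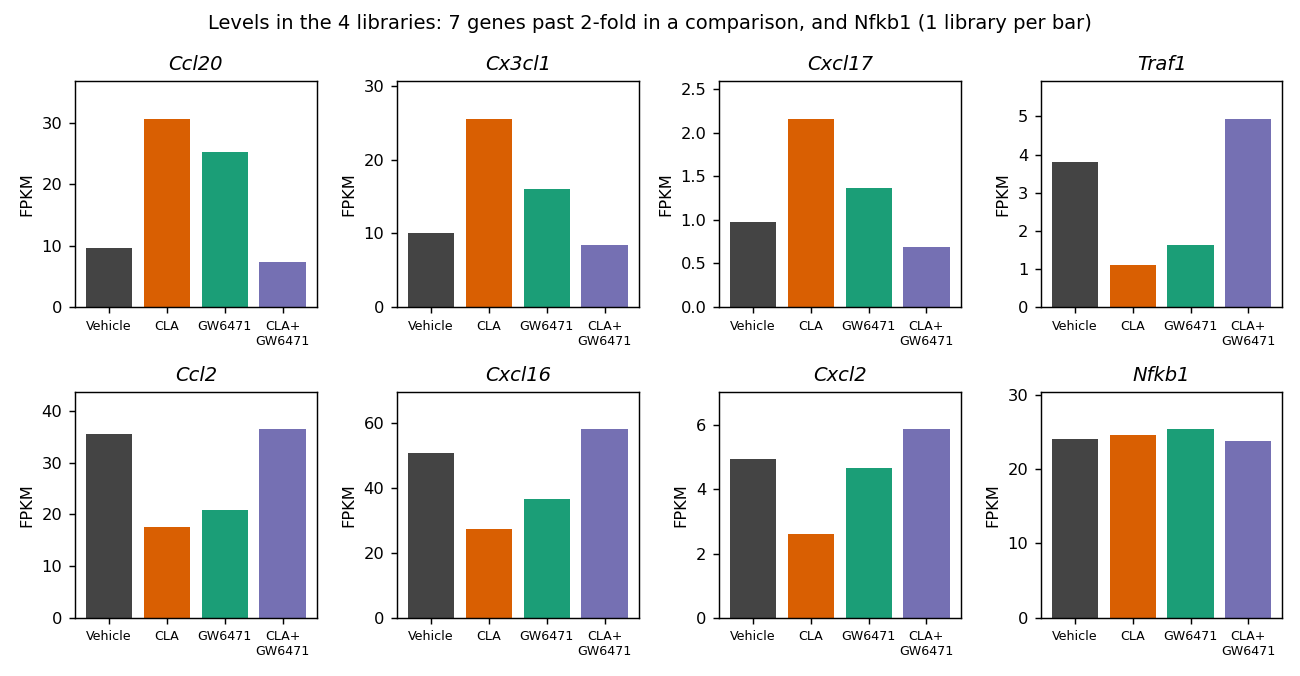
FPKM in each library (bars, 1 library each, axes from 0) for the 7 members past 2-fold in a comparison and for Nfkb1, which had the smallest spread of the 28 members with a mean of at least 1 FPKM. Ccl20 and Cx3cl1 were high in CLA and GW6471, Traf1, Ccl2 and Cxcl16 were low in them, and Nfkb1 stayed between 23.82 and 25.36 FPKM. Cxcl17 was highest in CLA, and its log2 ratio of GW6471 to Vehicle had a counting interval of -0.56 to 1.59.

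The CXC ligands included the member ligand with the highest mean level. Cxcl3 (Entrez gene 330122), an attractant of neutrophils, was at 76.44 (Vehicle), 80.85 (CLA), 71.95 (GW6471) and 73.08 FPKM (CLA+GW6471). Its libraries differed by at most 1.12-fold. Cxcl2, with the same role, was at 4.94, 2.61, 4.67 and 5.87 FPKM, with the CLA library low. Its log2 ratio was -0.90 for CLA to Vehicle (-1.30 to -0.54) and 1.14 for CLA+GW6471 to CLA (0.81 to 1.54), the latter 2.20-fold. Cxcl1, the third ligand with the shared promoter motif, was at 1.74, 1.94, 2.65 and 2.61 FPKM, an estimated 31 to 48 reads. Cxcl5 was at 1.17, 1.97, 1.43 and 1.29 FPKM, 1.63-fold higher in CLA than in Vehicle (log2 ratio 0.70, 0.17 to 1.42).

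These ligands lie in a single cluster on mm9 chromosome 5, from Cxcl5 (start 91188325) to Cxcl2 (end 91334935), a span of 147 kb. Cxcl3 lies between Cxcl5 and Cxcl1, 24.5 kb after the end of the former and 103 kb before the latter, and its mean level was 51.6-fold that of Cxcl5 and 33.8-fold that of Cxcl1. Ppbp, a platelet chemokine gene of the cluster that is no member by its symbol, was at 2.32 (Vehicle), 5.76 (CLA), 2.12 (GW6471) and 1.25 FPKM (CLA+GW6471). Its log2 ratio was 1.28 for CLA to Vehicle and -2.12 for CLA+GW6471 to CLA. Of the 5 cluster genes examined, Cxcl3 alone was above 5.87 FPKM.

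**Figure D3:**
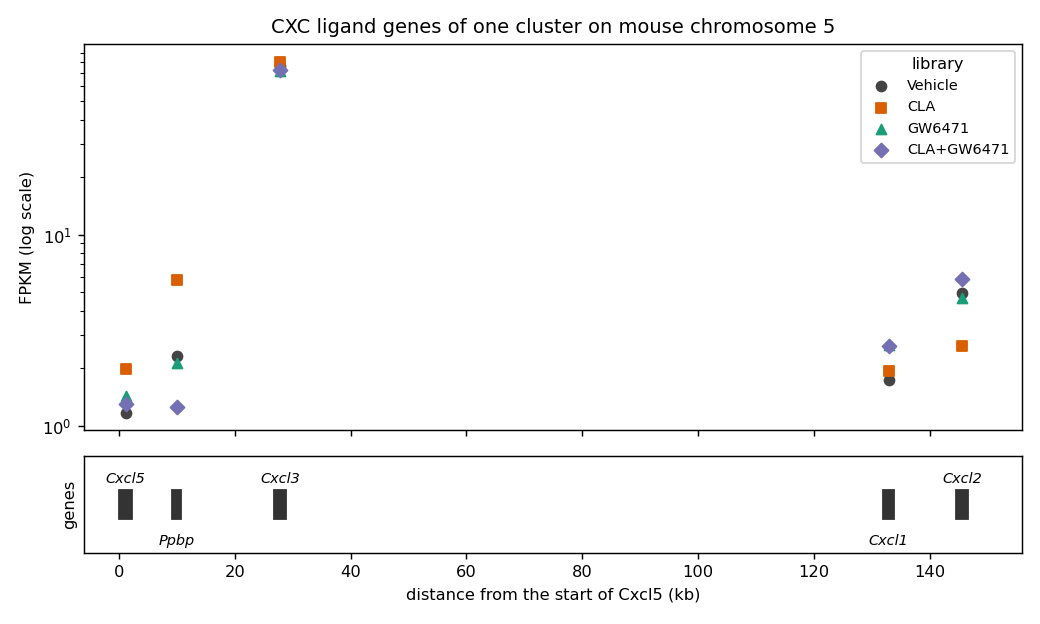
FPKM (log axis) of 5 CXC ligand genes against their distance in kb from the start of Cxcl5 on chromosome 5 (mm9), 1 symbol per library, with the genes drawn to scale below. Cxcl3 lay at 71.95 to 80.85 FPKM in all 4 libraries, and the other 4 genes at most at 5.87 FPKM.

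Other CXC ligands lie apart from this cluster. Cxcl16 (Entrez gene 66102, mm9 chromosome 11, 70267485 to 70273486, minus strand), a membrane-bound ligand and scavenger receptor, was at 50.80 (Vehicle), 27.39 (CLA), 36.66 (GW6471) and 58.16 FPKM (CLA+GW6471). The CLA library was the lowest, GW6471 the next, and CLA+GW6471 the highest. The log2 ratio of CLA to Vehicle was -0.89 (-0.99 to -0.80), a 1.85-fold difference, and that of CLA+GW6471 to CLA was 1.08 (0.99 to 1.18), 2.12-fold. Cxcl10, induced by interferons and an attractant of T cells, was at 10.83, 7.84, 11.94 and 13.59 FPKM, with a log2 ratio of 0.79 for CLA+GW6471 to CLA (0.51 to 1.08). Cxcl17, a ligand of mucosal tissues, was at 0.98, 2.16, 1.37 and 0.69 FPKM, an estimated 10 to 31 reads. It was 2.09-fold higher in CLA than in Vehicle, with a wide interval of the log2 ratio (1.07, 0.19 to 2.17), and 2.86-fold lower in CLA+GW6471 than in CLA (-1.52, -2.86 to -0.60).

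Chemokine receptors were near 0. All 9 listed receptors had a mean under 1 FPKM. Cxcr2, the receptor of the neutrophil attractants, was the highest at 0.44 to 0.64 FPKM, and Ccr10, the receptor of Ccl27a, was at 0.23 to 0.61 FPKM. Ccr7 reached 0.24 FPKM, while Cxcr3, Cxcr5, Cxcr6, Cxcr7, Ccr4 and Ccr9 were at 0 to 0.08 FPKM. An exact 0 in such a table can be a failed estimate.

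Adhesion molecules and cytokines divided into steady and varying genes. Icam1, to which leukocyte integrins bind, was at 25.28, 25.99, 26.02 and 27.90 FPKM, and Vcam1, with a similar role, was at 14.42, 13.75, 14.48 and 13.02 FPKM. Their highest library exceeded the lowest by 1.10-fold and 1.11-fold. Csf1, the growth factor of macrophages, was at 26.98, 21.79, 21.06 and 28.57 FPKM. Lif, a cytokine of the interleukin-6 family, was at 27.91 (Vehicle), 15.10 (CLA), 24.46 (GW6471) and 26.49 FPKM (CLA+GW6471), so that the CLA library alone was low. The log2 ratio of Lif was -0.88 for CLA to Vehicle (-0.99 to -0.78) and 0.81 for CLA+GW6471 to CLA (0.71 to 0.92). Il6 itself was at 0 to 0.09 FPKM, Ptgs2, the inducible cyclooxygenase gene, at 0.01 to 0.02 FPKM, and Lcn2, an acute phase protein gene, at 0.12 to 0.30 FPKM.

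Among the 23 members with a mean under 1 FPKM, single values ran from 0 to 1.21 FPKM. Of them, 12 had a mean under 0.1 FPKM, and 11 were listed at 0 in at least 1 library. Besides those named above these were Ccl27b at 0.25 to 0.35 FPKM, Cxcl11 at 0.19 to 0.44 FPKM, and Ccl4, Ccl6 and Ccl28 at no more than 0.08 FPKM. Where a counting interval could be computed for these genes, it held 0 in every comparison except Ccl17 in CLA+GW6471 against GW6471 (an estimated 2 against 12 reads), so that other differences were not detectable at this depth.

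Read by comparison, CLA against Vehicle addressed the effect of the diet. Ccl20, Cx3cl1 and Cxcl17 were higher by at least 2-fold, 3 of 28 members against 1.79% of all genes, and Ccl2 and Traf1 were lower, 2 of 28 against 0.744%. At the 1.5-fold limit 4 members were higher, against 7.33% of all genes, and 6 were lower, against 4.95%. The 6 were Cxcl16, Ccl2, Lif, Tnfaip3, Cxcl2 and Traf1. The median log2 ratio of the 28 members was -0.13, beside -0.0071 over all genes.

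GW6471 against Vehicle addressed the antagonist on the control diet. Ccl20 was higher by at least 2-fold, 1 of 28 against 0.56% of all genes, and Traf1 lower, 1 of 28 against 0.309%. At 1.5-fold, Ccl20 and Cx3cl1 were higher, against 3.29% of all genes, and Ccl2 and Traf1 lower, against 2.1%. The median log2 ratio was -0.07 for the members and -0.0041 for all genes. This comparison shares the Vehicle library with CLA against Vehicle, so a value of that library enters both.

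CLA+GW6471 against CLA asked what the antagonist did on the CLA diet. Cxcl16, Ccl2, Cxcl2 and Traf1 were higher by at least 2-fold, 4 of 28 against 1.27% of all genes, and Ccl20, Cx3cl1 and Cxcl17 were lower, 3 of 28 against 2.67%. At 1.5-fold, 6 members were higher, against 6.84% of all genes, with Lif and Cxcl10 added, and the same 3 were lower, against 9.16%. The median was 0.22 for the members and 0.0090 for all genes. The CLA library enters this comparison and the first.

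CLA+GW6471 against GW6471 compared the diets in the presence of the antagonist. Traf1 was higher by at least 2-fold, 1 of 28 against 0.357% of all genes, and Ccl20 lower, 1 of 28 against 0.802%. At 1.5-fold, Cxcl16, Ccl2 and Traf1 were higher, against 2.81% of all genes, and Ccl20, Cx3cl1 and Cxcl17 lower, against 3.88%. The counting interval of the log2 ratio of Cxcl17, -2.27 to 0.15, covered both directions. The median was 0.11 for the members and 0.0041 for all genes.

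**Figure D4:**
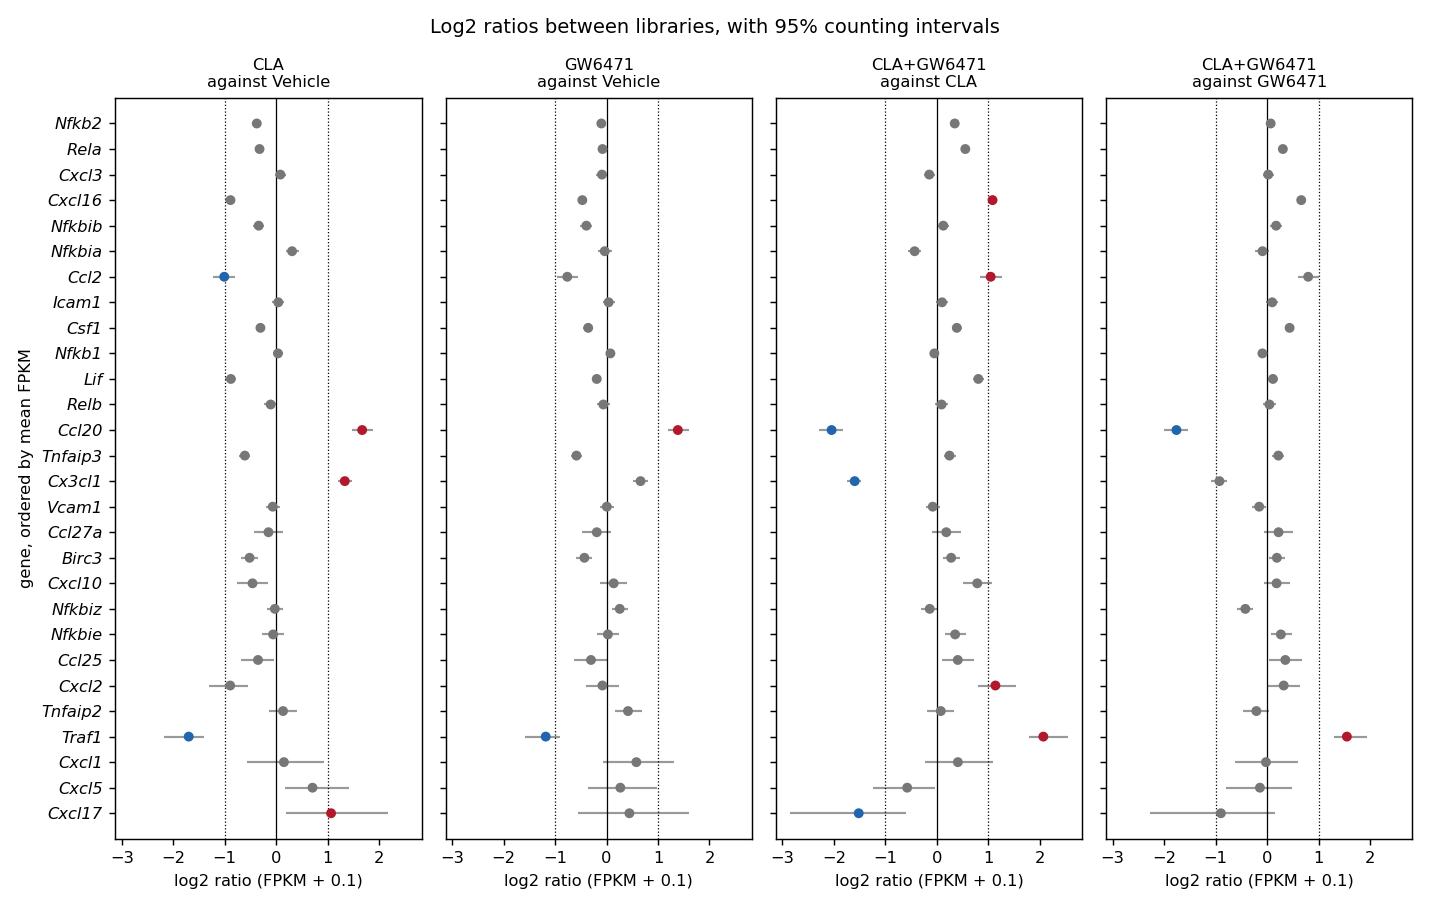
Log2 ratios of FPKM + 0.1 for the 28 members in the 4 comparisons (points), with 95% counting intervals (bars), and dotted lines at 2-fold. Red points are at least 2-fold higher and blue points at least 2-fold lower, as for Ccl20 at 1.67 in CLA against Vehicle and at -1.76 in CLA+GW6471 against GW6471.

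CLA against Vehicle and CLA+GW6471 against GW6471 share no library. Their log2 ratios had opposite signs for 24 of the 28 members, beside 73% of all genes, a share that was also high outside these genes. The exceptions were Cxcl3, Icam1, Vcam1 and Nfkbiz. The CLA and GW6471 libraries were both below the other 2 for 14 of the 28 members, beside 31.8% of all genes. These included Nfkb2, Rela, Cxcl16, Ccl2, Csf1, Lif, Tnfaip3, Birc3, Cxcl2 and Traf1. They were both above the other 2 for 5 members, Nfkb1, Ccl20, Cx3cl1, Cxcl5 and Cxcl17, beside 30.2% of all genes. The highest library was CLA+GW6471 for 11 members (28% of all genes), Vehicle for 6 (18.4%), CLA for 6 (34.7%) and GW6471 for 5 (18.9%). The summed hepatocyte, bile duct and macrophage genes and Dcn were likewise higher in CLA and GW6471 than in the other 2 libraries. Alb, Spp1 and Cd68 led these sums, and some listed genes went the other way. In the order Vehicle, CLA, GW6471 and CLA+GW6471, the bile duct gene Sox9 was at 54.74, 34.72, 48.67 and 57.05 FPKM. The hepatocyte gene Hnf4a was at 54.53, 47.31, 47.23 and 51.84 FPKM. The macrophage sum was 26.8 FPKM in GW6471 and 26.01 FPKM in CLA+GW6471. The squamous genes did not move together: Ivl was higher in CLA and GW6471, at 1.68 (Vehicle), 2.57 (CLA), 2.96 (GW6471) and 1.72 FPKM (CLA+GW6471), and Sprr1a was lower in CLA and close to Vehicle in GW6471, at 19045.6 (Vehicle), 15810.2 (CLA), 18795.2 (GW6471) and 26115.8 FPKM (CLA+GW6471). Their part in these results was not tested.

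Over the 28 members, the highest library exceeded the lowest by a median of 1.39-fold, beside 1.27-fold over all genes. By role, this median was 1.19-fold for the 4 NF-kB subunits, 1.34-fold for the 5 inhibitors and 1.11-fold for the 2 adhesion molecules. It was 1.43-fold for the 3 genes of the tumour necrosis factor pathway and 1.60-fold for the 2 cytokines. For the 4 CC ligands it was 1.70-fold and for the 7 CXC ligands 1.72-fold. The roles also differed in level, with a median mean of 50.4 FPKM for the subunits and 4.5 FPKM for the CXC ligands. The 3 genes past 3-fold were Traf1 at 4.20-fold, Ccl20 at 4.12-fold and Cx3cl1 at 3.02-fold. Ligands were found at both ends, with Cxcl3 at 1.12-fold and Ccl27a at 1.17-fold, whereas none of the 4 subunits passed 1.47-fold.

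**Figure D5:**
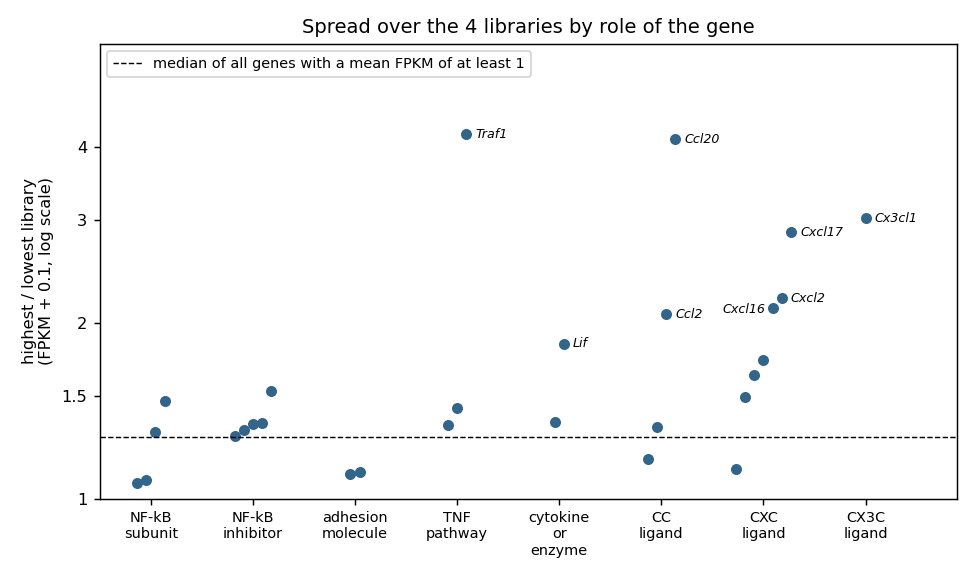
Ratio of the highest to the lowest library (FPKM + 0.1, log axis) for each of the 28 members, grouped by role, with a dashed line at the median of all genes (1.27). Nfkb1, Relb, Icam1 and Vcam1 lie below the line, and Traf1, Ccl20 and Cx3cl1 lie above 3.

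The pathway around the members was read from lists of further genes, without the members. Of 38 listed genes of NF-kB signalling, from receptors and adaptors to the IkB kinases, 36 had a mean of at least 1 FPKM. None of these was past 2-fold in CLA against Vehicle, 2 were higher and 3 lower at 1.5-fold, beside 7.33% and 4.95% of all genes, and their median log2 ratio was -0.08, beside -0.0071. In CLA+GW6471 against CLA, 1 was lower past 2-fold, beside 2.67% of all genes, with a median of 0.11, beside 0.0090. That gene was Traf5, an adaptor, at 3.46 (Vehicle), 6.48 (CLA), 4.58 (GW6471) and 3 FPKM (CLA+GW6471). Cd40, a receptor of the tumour necrosis factor family, was at 5.23, 3.09, 3.82 and 4.79 FPKM, and Traf2, an adaptor that binds Traf1, at 8.27, 5.45, 6.64 and 8.91 FPKM. Both were lowest in CLA, as Traf1 was.

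Of 37 listed further NF-kB targets, 27 had a mean of at least 1 FPKM. In CLA against Vehicle, 1 was higher and 1 lower past 2-fold, beside 1.79% and 0.744% of all genes, and 4 were higher and 3 lower past 1.5-fold, beside 7.33% and 4.95%. The median log2 ratio was 0.06, beside -0.0071 over all genes. Il1rn, the interleukin-1 receptor antagonist gene, was at 34.25 (Vehicle), 6.58 (CLA), 10.56 (GW6471) and 36.73 FPKM (CLA+GW6471), a log2 ratio of CLA to Vehicle of -2.36. Il33, an alarmin gene, was at 13.25, 33.54, 24.25 and 12.20 FPKM, with a log2 ratio of 1.33. Slc7a11, a cystine transporter gene, was at 28.08, 44.62, 52.65 and 24.51 FPKM. The first had the order of Traf1 and Ccl2, and Il33 that of Ccl20 and Cx3cl1. These genes were named for the largest log2 ratios of their list. CLA and GW6471 were both below the other libraries for 31.8% of all genes, and both above them for 30.2%.

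Of 21 listed acute phase genes, 11 had a mean of at least 1 FPKM, and in CLA against Vehicle 2 of them were higher past 2-fold and none lower, beside 1.79% and 0.744% of all genes, with a median log2 ratio of 0.25, beside -0.0071. Fgb, a fibrinogen chain gene, was at 45.22, 138.03, 86.43 and 35.68 FPKM, Lbp, which encodes the protein that binds bacterial lipopolysaccharide, at 31.56, 66.70, 54.61 and 30.93 FPKM, and Hp, the haptoglobin gene, at 1.01, 1.75, 1.75 and 1.36 FPKM. Of 7 listed further genes of the chemokine system, 4 had a mean of at least 1 FPKM. Among these Mif, a cytokine that can bind chemokine receptors, was at 378.84, 586.80, 462.64 and 412.71 FPKM, and Cd74, a receptor for it, at 7.41, 3.52, 2.88 and 8.81 FPKM.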

How the data were processed

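The authors sequenced liver RNA on an Illumina instrument. BWA and Bowtie (mapping to mm9) and Cufflinks (quantification) are named in the methods and the submitters' processing notes, without versions. The values deposited by the authors are FPKM for 15500 genes, rounded to 2 decimals, in 1 column per library. The header names no unit, and FPKM was taken from the methods. Samples were grouped by the treatment label, and all 4 columns were used.

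A pseudocount of 0.1 was added to the deposited FPKM before log2, and a mean over the 4 libraries of at least 1 was required in counts and medians. With 1 library per condition no test was made. Depth was estimated from the steps between low FPKM values of genes under 1000 nt with 1 coding transcript, and reads per member from the longest coding transcript of GENCODE vM1 (mm9), matched by symbol for 49 of 51 members. Exact Clopper-Pearson intervals at 95% used these reads without the pseudocount. Gene positions came from the same annotation and promoters from RefSeq (GRCm38.p6). The calling of changed genes was run on simulated libraries with planted changes well past the limit and no counting error. That checks the calculation, not the counts given here.

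The members and lists were chosen with earlier results of these data known. Named were all members, at most 3 genes with the largest log2 ratio of each list with a mean of at least 1 FPKM, and defining cell markers; Cx3cr1 and the promoters other than those of Ccl20 and Cxcl2 were chosen after values were seen. Tried as alternatives were pseudocounts of 0.01 and 1, no filter or a mean of 5 FPKM, 2 scalings of the libraries and a limit of 1.5-fold. The work used scipy 1.17.1, pandas 2.3.3, numpy 2.4.6 and matplotlib 3.10.9 under Python 3.11.15.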

Additional observations from a re-analysis of the deposited data

Results flagged for a closer look

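For 2 members, the log2 ratio of CLA to Vehicle and that of CLA+GW6471 to GW6471 were past 2-fold in opposite directions. The first ratio exceeded the second by 3.43 for Ccl20, from 1.67 without GW6471 to -1.76 with it. For Traf1 the difference was -3.25, from -1.70 to 1.55. With 1 library per condition these differences were not tested.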

How the results depend on the processing

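No paired analysis was possible because each condition has 1 library, and for the same reason no replicate could be left out. Of 80 counts and medians of the members under an alternative, 62 stayed within 1.5 times the main count or within 0.1 of the main median (log2), and 18 did not. With a pseudocount of 1, members lower by 2-fold numbered 1 of 28 in CLA against Vehicle, beside 31 of 10355 genes. In GW6471 against Vehicle they numbered 0, beside 10 of 10355 genes. Without the filter on low values, the medians over 51 members were -0.027 in CLA against Vehicle, 0.078 in CLA+GW6471 against CLA and 0 in CLA+GW6471 against GW6471. In that setting 2 of 51 members were lower in GW6471 against Vehicle, beside 220 of 15500 genes. Further, 5 were lower in CLA+GW6471 against CLA, and in CLA+GW6471 against GW6471 2 were higher and 2 lower. With a mean of at least 5 FPKM, 22 members remained. Then 1 was lower in CLA against Vehicle, beside 42 of 8197 genes, and 0 in GW6471 against Vehicle, beside 5 of 8197 genes. In CLA+GW6471 against CLA 2 were higher, and in CLA+GW6471 against GW6471 0. Without the filter and at 5 FPKM, counts over all genes are not given for the comparisons with CLA+GW6471. With a limit of 1.5-fold, 6 were lower in CLA against Vehicle, beside 4.95% of all genes. In GW6471 against Vehicle 2 were higher and 2 lower, beside 3.29% and 2.1%. In CLA+GW6471 against GW6471 3 were higher and 3 lower, beside 2.81% and 3.88%. Of 16 single member ratios past 2-fold, none changed sign under the pseudocounts, filters or scalings in which it had a value. Under 2-fold with a pseudocount of 1 were Ccl2 at -0.97 and Cxcl17 at 0.67 in CLA against Vehicle, Traf1 at -0.87 in GW6471 against Vehicle, and Cxcl2 at 0.93 and Cxcl17 at -0.90 in CLA+GW6471 against CLA. Depth limits the values of Cxcl1, Cxcl5 and Cxcl17 and of the members under 1 FPKM.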
